A study of Mus musculus with 9 samples.

Results

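The proteasome genes of mouse brown adipose tissue were examined in obese mice given vehicle or cotadutide. The set comprised the protein-coding genes whose symbol begins with Psma, Psmb, Psmc, Psmd, Psme, Psmf or Psmg followed by a digit, and it held 50 of the 49315 genes counted. RNA was sequenced from brown fat of 9 male C57Bl/6J mice, 4 given vehicle and 5 given cotadutide, with 1 library per mouse. All 9 mice were diet-induced obese, ate a 60% high fat diet until they weighed about 50 g, lived singly and were not kept at thermoneutrality. The labels give an age of 14 weeks and an acclimation of 3 weeks, without saying whether the age is that at arrival or at the first injection. Both groups were injected under the skin each day for 28 days. Cotadutide is a peptide drug that activates both the receptor of glucagon and that of GLP-1, an incretin hormone, and the sources used here do not give its dose. The comparison addressed which genes of brown fat differ between the 2 treatments.

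The proteasome is the protease that degrades proteins tagged with ubiquitin. Its core particle is a barrel of alpha rings around beta rings, and the proteolytic sites lie on the beta subunits Psmb5, Psmb6 and Psmb7. A regulatory particle caps the barrel, with a base that holds a ring of ATPases (Psmc genes) and a lid that removes ubiquitin. Interferon gamma induces alternative catalytic subunits, Psmb8, Psmb9 and Psmb10, which replace the constitutive ones in the immunoproteasome, and the PA28 activator, made from Psme1 and Psme2, which binds the ends of the core without ubiquitin or ATP. Psme4 encodes PA200, a nuclear activator of another family. In brown fat the transcription factor Nfe2l1 is known to sustain proteasome gene expression during adaptation to cold.

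Libraries held 10.8 to 25.1 M counts (M, mega), and the 50 genes together took 0.384 to 0.442% of them. Levels are given as CPM (counts per mega-count of a library) on library totals corrected with TMM factors (trimmed mean of M values), and a difference is a log2 fold change, cotadutide against vehicle, with its standard error (SE) from edgeR's quasi-likelihood test, in which p-values were adjusted over all 14747 genes tested. The tissue label was checked on markers: the brown adipocyte gene Ucp1 lay between 3762 and 6048 CPM in vehicle mice and between 4879 and 6693 CPM in cotadutide mice. All 10 brown adipocyte markers had estimates above zero, with a median of 0.49, and 3 were called higher. The sum of 6 general adipocyte markers was 13092 to 14948 CPM in vehicle mice and 17626 to 20893 CPM in cotadutide mice without overlap, with all 6 estimates above zero and 3 called higher. The part of this difference in the proteasome results was not tested. Skeletal muscle RNA was also present and differed between the groups. The sum of 14 muscle markers was 21766 to 46960 CPM in vehicle mice and 5092 to 19143 CPM in cotadutide mice without overlap, and 7 of the 14 were lower in cotadutide mice. The sum of 11 macrophage markers was 360 to 596 CPM in vehicle mice and 222 to 458 CPM in cotadutide mice, with 5 of the 11 lower. Markers of T and natural killer cells summed to 3.45 to 5.33 CPM in vehicle mice and to 7.66, 3.59, 32.0, 3.91 and 4.85 CPM in cotadutide mice 1 to 5, so cotadutide mouse 3 stood apart. Over all genes tested, 9.31% were called higher and 9.34% lower. In bulk tissue, fewer cells of a type and less RNA per cell cannot be told apart.

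The stretch upstream of the start was taken from RefSeq (GRCm38.p6) for the 4 members that passed the test, Psme2, Psmb8, Psmg1 and Psme4, and for Psmb5 and Psmb6, the constitutive catalytic subunits with a window. It is shown so that the members that moved can be set beside constitutive ones. Bases inside exons of the gene were left out, which shortened Psme2 and Psme4. The Psmb8 window lay wholly within exons of other transcripts of that gene, and only the 30 bases around its motif are shown. Each reads 5′ to 3′ on the strand of the gene, and capitals mark a match to a motif.
Psmb5, chr14:54617996-54618245, minus strand: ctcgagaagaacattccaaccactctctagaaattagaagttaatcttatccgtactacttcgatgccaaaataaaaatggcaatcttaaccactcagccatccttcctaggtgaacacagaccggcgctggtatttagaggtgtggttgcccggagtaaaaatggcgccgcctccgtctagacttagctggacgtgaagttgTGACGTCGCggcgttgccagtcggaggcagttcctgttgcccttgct
Psmb6, chr11:70525107-70525356, plus strand: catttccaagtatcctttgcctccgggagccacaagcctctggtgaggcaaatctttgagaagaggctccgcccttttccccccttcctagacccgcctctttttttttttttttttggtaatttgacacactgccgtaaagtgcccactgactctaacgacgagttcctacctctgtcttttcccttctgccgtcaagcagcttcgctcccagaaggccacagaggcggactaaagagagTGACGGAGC
Psmb8, chr17:34198088-34198117, plus strand: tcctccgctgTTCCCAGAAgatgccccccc
Psme2, chr14:55591114-55591351, minus strand: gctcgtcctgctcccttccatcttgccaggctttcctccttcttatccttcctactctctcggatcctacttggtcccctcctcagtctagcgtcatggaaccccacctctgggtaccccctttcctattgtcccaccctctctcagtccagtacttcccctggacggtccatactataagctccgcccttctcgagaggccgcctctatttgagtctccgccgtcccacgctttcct
Psme4, chr11:30771525-30771725, plus strand: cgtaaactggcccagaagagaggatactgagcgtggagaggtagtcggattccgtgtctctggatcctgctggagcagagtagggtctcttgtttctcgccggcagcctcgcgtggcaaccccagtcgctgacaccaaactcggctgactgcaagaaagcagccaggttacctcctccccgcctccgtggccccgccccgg
Psmg1, chr16:95990961-95991210, minus strand: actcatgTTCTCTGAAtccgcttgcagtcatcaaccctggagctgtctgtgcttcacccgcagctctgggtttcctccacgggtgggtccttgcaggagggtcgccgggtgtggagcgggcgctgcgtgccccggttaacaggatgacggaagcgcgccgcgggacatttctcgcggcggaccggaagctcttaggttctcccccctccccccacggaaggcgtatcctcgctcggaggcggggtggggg

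The 4 motifs were searched on both strands in the 250 bases before each start, in the 42 members with a RefSeq window and in 32851 windows of all genes. TGACNNNGC, the core of the antioxidant response element to which Nfe2l1 and Nfe2l2 bind with small Maf partners, was found for 5 of 42 members (11.9%) and in 10.2% of all windows. The 5 were Psmb5, Psmb6, Psmc6, Psmd9 and Psmd12, and the match began 47 bases before the start in Psmb5 and 9 bases before it in Psmb6. TTCNNNGAA, the gamma-activated site of interferon gamma signalling, was found for 2 of 42 (4.76%), Psmb8 and Psmg1, against 7.02% of all windows. It began 97 bases before the start of Psmb8 and 243 bases before that of Psmg1. An interferon response core, GAAA followed by 2 bases of any kind and GAAA again, was found for 3 of 42 (7.14%; Psmb3, Psmd4 and Psmd9) against 2.98%. CCAAT, bound by the Nfy complex, was found for 15 of 42 (35.7%) against 33.8%. By class it was found for 5 of 7 alpha ring, 2 of 5 ATPase and 1 of 6 lid genes and for 0 of 3 core chaperones. These small counts carry no test. A member counted if any of its windows matched, whereas the shares of all genes count single windows. The gamma-activated site and the interferon response core share the letters GAA and can overlap. The windows of Psme2 and Psme4 held none of the 4, which says only that these letters are not in them. Exon bases of the gene itself were not left out of the search. All 250 bases of the Psmb9 window, 139 of the Psme1 window and 52 of the Psmb10 window lay in such exons. A motif missing from these windows can therefore still lie upstream of the gene.

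Of the 50 members, 48 passed the filter on low counts and were tested. Psme2, Psmb8 and Psmg1 were higher and Psme4 was lower in cotadutide mice, so 3 rose, 1 fell and 44 did not pass. That is 8.33% of the 48, against 18.7% of all genes tested. Of all genes, 9.31% were called higher and 9.34% lower. The groups did not overlap for 4 members, Psme2 and Psmg1 (higher) and Psme4 and Psmd1 (lower), against 8.06% of all genes without overlap in the higher direction and 7.79% in the lower. The share of members called was below the share of all genes, and the changes were small, since the log2 fold changes of the 48 ran from -0.44 to 0.52. The estimate was above zero for 34 of 48 members, with a median of 0.08, and for 7423 of 14747 genes, with a median of 0.003. At an unadjusted p under 0.05 there were 14 of 48 members (29.2%) and 5267 of 14747 genes (35.7%). Calls depended on single animals: no member passed without vehicle mouse 1 or without vehicle mouse 2, when 139 and 147 of all genes passed, against 2751 with all mice. With the muscle marker level of each library as a covariate no member and no gene at all passed, and 1 member and 2045 genes had an unadjusted p under 0.05.

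**Figure D1:**
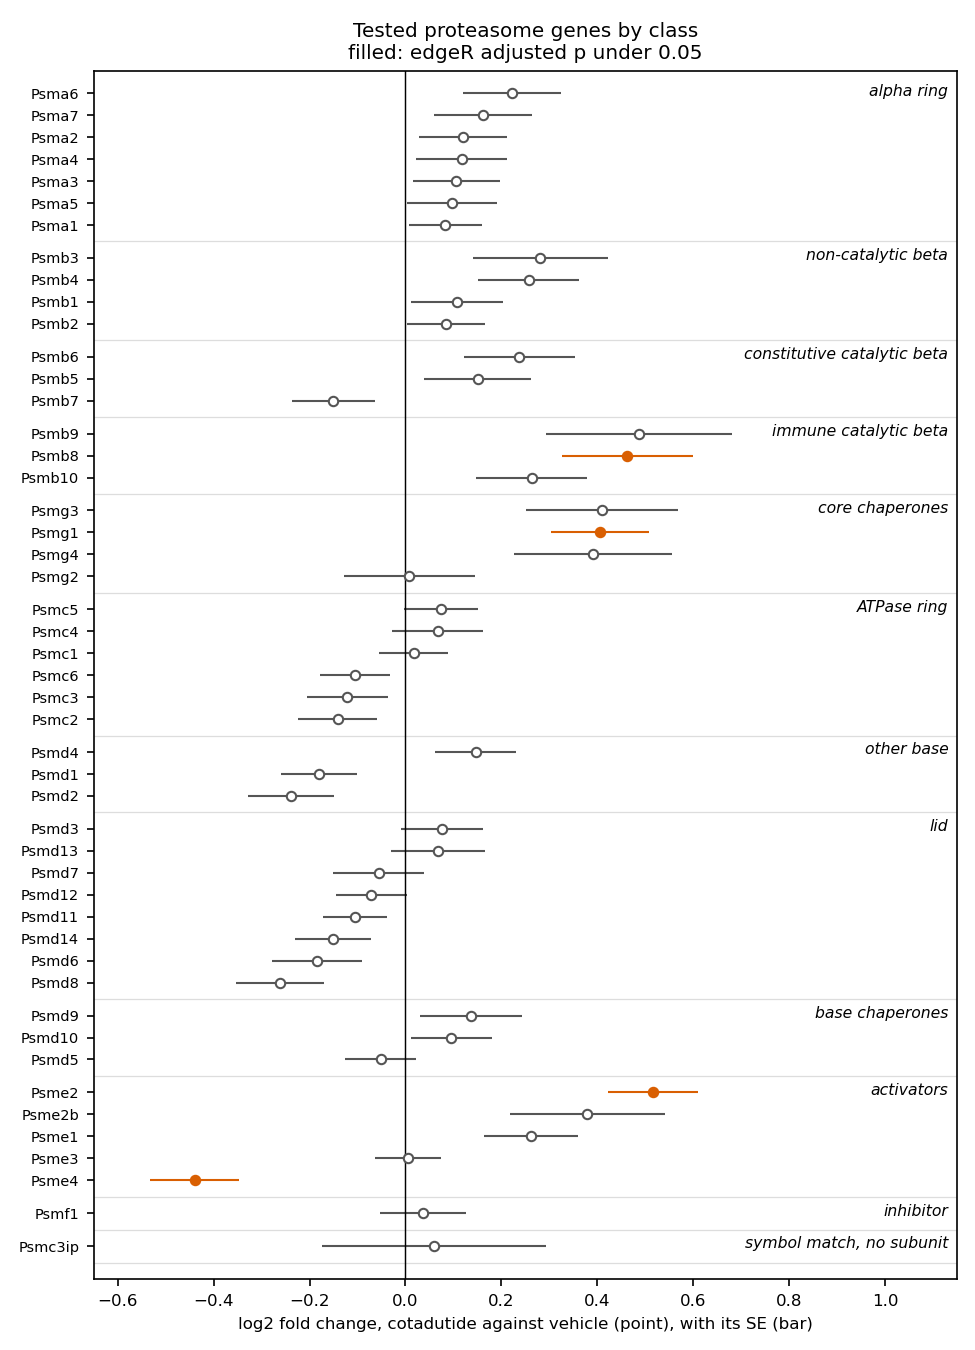
Log2 fold change (x axis, cotadutide against vehicle) of the 48 tested proteasome genes, grouped by class; points are estimates, bars their SE, and filled points passed an adjusted p of 0.05 in edgeR's test. Psme2, Psmb8 and Psmg1 lie to the right of zero and Psme4 to the left, and 13 of the 14 constitutive core subunits lie to the right.

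The activators gave the highest and the lowest estimate of the set. Psme2, the beta subunit of PA28 (ENSMUSG00000079197, chr14:55587441-55591113 in mm10), was at 76.0, 81.6, 77.0 and 81.3 CPM in the 4 vehicle mice and at 103.4, 136.4, 115.5, 101.5 and 108.1 CPM in the 5 cotadutide mice. Every cotadutide mouse was above every vehicle mouse. Psme2 rose 1.43-fold, from 79.0 ± 2.89 (SD, n = 4) to 113 ± 14.2 CPM (SD, n = 5). The log2 fold change was 0.52 (SE 0.09, edgeR adjusted p = 0.0147). Psme4, which encodes PA200 (ENSMUSG00000040850, chr11:30771726-30880361), was at 90.3, 100.6, 99.4 and 98.4 CPM in vehicle mice and at 73.5, 61.9, 64.2, 76.4 and 82.3 CPM in cotadutide mice. Here every cotadutide mouse was below every vehicle mouse. Psme4 was 1.36 times lower, at 71.7 ± 8.53 against 97.2 ± 4.71 CPM, with a log2 fold change of -0.44 (SE 0.09, edgeR adjusted p = 0.017). Both calls were lost when vehicle mouse 1 (adjusted p = 0.0518 for each) or vehicle mouse 2 (0.0508 for Psme2 and 0.0519 for Psme4) was left out, and with the muscle covariate (0.319 and 0.407), where the estimates were 0.39 and -0.23. With 1 mouse left out the estimates ran from 0.436 to 0.532 for Psme2 and from -0.520 to -0.395 for Psme4.

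Psme1, the alpha partner of Psme2 in PA28 and its neighbour on chromosome 14, was at 76.8, 74.1, 71.9 and 85.3 CPM in vehicle mice and at 89.5, 112.6, 89.6, 84.4 and 85.4 CPM in cotadutide mice. The groups overlapped, because vehicle mouse 4 lay above cotadutide mouse 4, and cotadutide mouse 2 was well above the rest. Its log2 fold change of 0.26 (SE 0.10) did not pass (edgeR adjusted p = 0.0805). Psme3, which encodes PA28 gamma, a nuclear activator, was at 69.5 ± 1.20 and 69.8 ± 4.41 CPM, a log2 fold change of 0.005 (SE 0.07, adjusted p = 0.966), and its sign differed between settings. Psme2b, a single-exon copy of Psme2 on chromosome 11, was at 4.19 ± 0.639 and 5.47 ± 0.865 CPM with a log2 fold change of 0.38 (SE 0.16, adjusted p = 0.115). Reads shared with Psme2 could be assigned to either, so its value is uncertain. Psmf1, the inhibitor PI31, was at 14.8 ± 1.43 and 15.2 ± 0.689 CPM, a log2 fold change of 0.04 (SE 0.09, adjusted p = 0.807). Within each mouse the ratio of Psme2 to Psme4 CPM was 0.774 to 0.842 in vehicle mice and 1.31 to 2.20 in cotadutide mice. That ratio joins 2 genes called in opposite directions and is a description, not a further test.

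**Figure D2:**
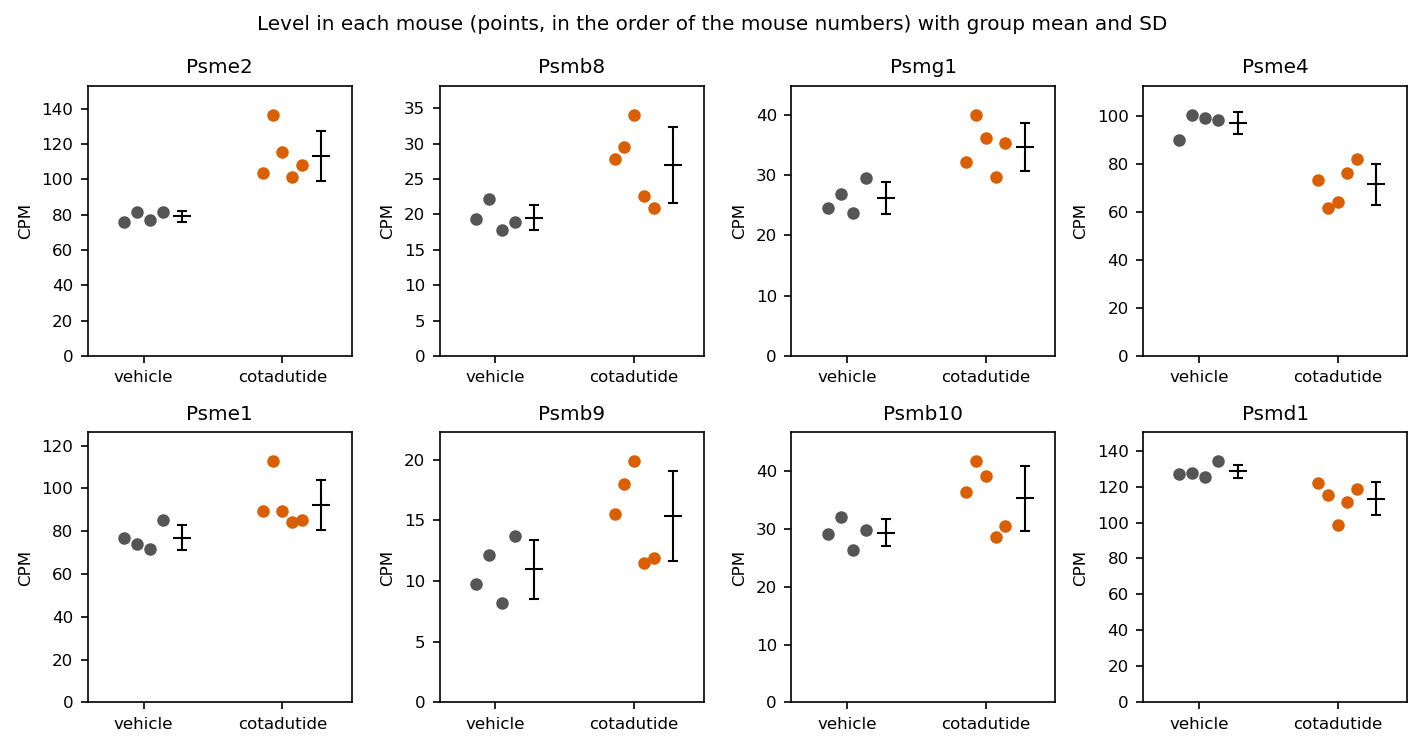
CPM (y axes, each starting at 0) of 8 proteasome genes in each mouse (points), with the group mean and SD beside them, for 4 vehicle and 5 cotadutide mice. The groups are apart for Psme2, Psmg1, Psme4 and Psmd1 and overlap for Psmb8, Psme1, Psmb9 and Psmb10.

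Among the immune catalytic subunits Psmb8 passed the test and Psmb9 and Psmb10 did not. Psmb8, which carries the chymotrypsin-like site of the immunoproteasome (ENSMUSG00000024338, chr17:34197721-34201454), was at 19.4, 22.1, 17.9 and 18.9 CPM in vehicle mice and at 27.8, 29.5, 34.1, 22.6 and 20.8 CPM in cotadutide mice. Cotadutide mouse 5 lay below vehicle mouse 2, so the groups overlapped. Psmb8 rose 1.38-fold, from 19.6 ± 1.82 (SD, n = 4) to 27.0 ± 5.34 CPM (SD, n = 5), with a log2 fold change of 0.46 (SE 0.14, edgeR adjusted p = 0.0387). The highest value was that of cotadutide mouse 3, the mouse with the high T cell and B cell marker sums. Its B cell markers summed to 35.8 CPM against 1.70 to 3.21 CPM in the 8 other mice, and its Cd3e, a defining T cell marker, was at 2.49 CPM. Cd3e was at 0 to 0.385 CPM elsewhere, with no count in cotadutide mouse 4. Without that mouse the Psmb8 estimate was 0.34 (adjusted p = 0.0945). The call was lost in 7 of the 9 fits that each left out 1 mouse, with adjusted p of 0.0985, 0.0686, 0.113 and 0.0518 without vehicle mice 1 to 4 and of 0.0699 and 0.0949 without cotadutide mice 1 and 2. With library totals alone as scaling (adjusted p = 0.0785) and with the muscle covariate (0.715) it was lost as well. None of the 4 T and natural killer cell markers tested of 13, and neither of the 2 B cell markers tested of 5, passed the test, and the part of these cells in the Psmb8 difference was not tested.

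Psmb9, the immune counterpart of Psmb6, was at 9.76, 12.1, 8.19 and 13.7 CPM in vehicle mice and at 15.5, 18.0, 19.8, 11.5 and 11.9 CPM in cotadutide mice. The groups overlapped, and the log2 fold change of 0.49 (SE 0.19) did not pass (edgeR adjusted p = 0.0973). Psmb10, the immune counterpart of Psmb7, was at 29.2, 32.2, 26.4 and 29.9 CPM in vehicle mice and at 36.4, 41.7, 39.3, 28.7 and 30.6 CPM in cotadutide mice. Its log2 fold change was 0.26 (SE 0.12, adjusted p = 0.126). For all 3 immune subunits, cotadutide mice 1 to 3 lay above all vehicle mice and cotadutide mice 4 and 5 lay within the vehicle range or near it. Psmb8, Psmb9 and the peptide transporter genes Tap1 and Tap2 are neighbours on chromosome 17, and 5.79% of the exon bases of Psmb9 are shared with Tap1. Psmb8 shares 6.8% of its exon bases with Gm20496, Psmb7 11.8% with Nek6 and Psmb5 12.5% with Mir686. Psmb6 and Psmb10 share none. Reads from the shared stretches cannot be told apart, because the strand setting of the counting is not given in the sources used here.

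The constitutive catalytic subunits did not pass the test. Psmb5, with the chymotrypsin-like site, was at 129.7 ± 15.5 and 144 ± 17.3 CPM (log2 fold change 0.15 with an SE of 0.11, edgeR adjusted p = 0.357). Psmb6, with the caspase-like site, was at 134 ± 16.1 and 158 ± 21.5 CPM (0.24, SE 0.12, adjusted p = 0.164). Psmb7, with the trypsin-like site, was at 150.7 ± 5.13 and 135.8 ± 13.6 CPM, and was the single core subunit with an estimate below zero (-0.15, SE 0.09, adjusted p = 0.234). Per kilobase of the length listed in the files, levels over the 9 mice were 158 CPM per kb for Psmb5, 78.7 for Psmb6 and 41.6 for Psmb7. On the same scale the immune subunits were at 8.65 (Psmb8), 3.66 (Psmb9) and 19.2 (Psmb10) CPM per kb, so in this tissue the constitutive mRNAs were the more abundant. Per kb of the spliced GENCODE transcript, Psmb5, Psmb6 and Psmb7 were at 153, 185 and 123 CPM per kb. Psmb8, Psmb9 and Psmb10 were then at 14.5, 9.91 and 24.9 CPM per kb.

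Each immune subunit was set against the one it replaces, as a ratio of levels per kb. Psmb8 was at 4.83 ± 0.454% of Psmb5 in vehicle mice and 6.02 ± 1.35% in cotadutide mice. Psmb9 was at 4.14 ± 0.489% and 4.97 ± 1.04% of Psmb6. Psmb10 was at 39.2 ± 2.51% and 52.5 ± 9.27% of Psmb7. The means were higher in cotadutide mice for all 3 pairs, and the groups overlapped for all 3. Together the immune subunits made up 9.53, 9.82, 9.45 and 8.79% of catalytic subunit mRNA per kb in vehicle mice and 10.5, 11.1, 13.1, 10.5 and 8.57% in cotadutide mice. The means were 9.40 ± 0.437% (SD, n = 4) and 10.7 ± 1.60% (SD, n = 5), a difference of 1.34 percentage points that was smaller than the SD of the cotadutide group. Cotadutide mouse 5 had the lowest share of all 9 and cotadutide mouse 3 the highest, and without mouse 3 the difference was 0.765 points. These shares use genes chosen with results known and carry no test.

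**Figure D3:**
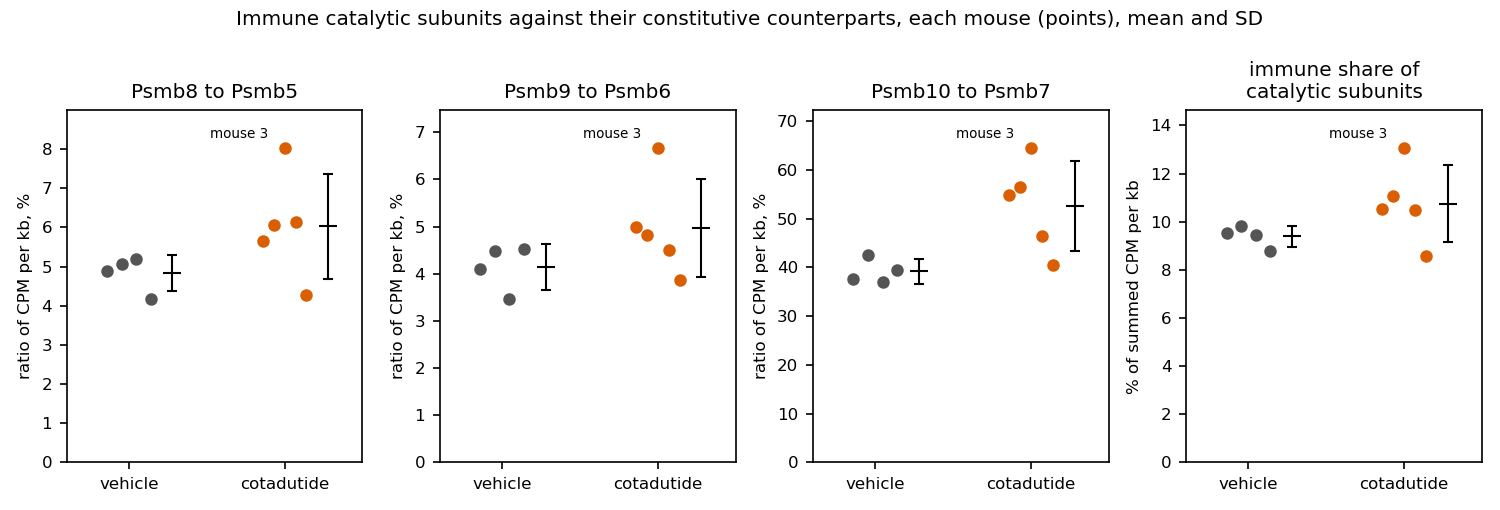
Immune catalytic subunits against the constitutive subunits they replace: ratios of CPM per kb in percent (3 left panels) and the immune share of the summed CPM per kb of all 6 catalytic subunits (right), one point per mouse, with group mean and SD; y axes start at 0. Cotadutide mouse 3 is highest in every panel, at 13.1% in the right one, and the groups overlap in all 4 panels. All levels per kb use the listed gene lengths, and the percentages differ with other lengths.

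The rest of the core particle lay slightly above vehicle without a call. None of the 14 constitutive core subunits passed the test. The estimate was above zero for 13 of 14, with a median of 0.12, where the median over all genes was 0.003. All 7 tested alpha ring genes, which form the gate and the outer wall of the barrel, were above zero, from 0.08 to 0.22. Psma6 had the smallest adjusted p among them, at 133.5 ± 12.7 and 155.7 ± 17.8 CPM (log2 fold change 0.22 with an SE of 0.10, edgeR adjusted p = 0.141). Psma2 had the highest level per kb of listed length (125 CPM per kb, log2 fold change 0.12, edgeR adjusted p = 0.376). Per kb of the spliced transcript Psma2 was instead the lowest of the 7, at 40.4 CPM per kb, with Psma6 at 140. Of the structural beta subunits, Psmb4 was at 139.6 ± 14.0 and 166.8 ± 19.4 CPM (0.26, SE 0.10, adjusted p = 0.103). Psmb1 was the most abundant of the 4 per kb of listed length and the lowest per kb of the spliced transcript (72.8 CPM per kb). Its log2 fold change was 0.11 (SE 0.10, edgeR adjusted p = 0.445). Summed over the 14 subunits the level was 1610, 1700, 1521 and 1852 CPM in vehicle mice and 1837, 2123, 1722, 1626 and 1882 CPM in cotadutide mice. The sums overlapped, with vehicle mouse 4 above 3 of the 5 cotadutide mice.

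None of the 17 subunits of the regulatory particle passed the test either, and here 11 of 17 estimates lay below zero, with a median of -0.10 and a range from -0.26 to 0.15. Psmd8, a lid subunit and the member with the highest CPM per kb in the lid, was at 267.2, 272.9, 235.4 and 225.0 CPM in vehicle mice and at 201.7, 233.5, 194.3, 198.2 and 216.0 CPM in cotadutide mice. One cotadutide mouse, mouse 2, lay above vehicle mouse 4. The log2 fold change was -0.26 (SE 0.09, edgeR adjusted p = 0.0654). It passed in 5 other settings, among them DESeq2 and scaling by library totals alone. Psmd2, a large scaffold of the base that receives ubiquitin carriers, was at 178 ± 8.88 and 150.8 ± 15.2 CPM (-0.24, SE 0.09, adjusted p = 0.0808). Psmd1, the other large scaffold, was at 127.1, 127.4, 125.3 and 134.0 CPM in vehicle mice and at 122.2, 115.3, 98.8, 111.2 and 118.9 CPM in cotadutide mice. Its groups did not overlap, but the log2 fold change of -0.18 (SE 0.08) did not pass (adjusted p = 0.124). Psmd4, a ubiquitin receptor, was the base subunit with the highest level per kb outside the ATPase ring, and it had the highest estimate of the particle (0.15, SE 0.08, adjusted p = 0.235).

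The ATPase ring was split, with 3 estimates above and 3 below zero. Psmc2 was at 92.5 ± 6.27 and 83.9 ± 6.57 CPM (-0.14, SE 0.08, edgeR adjusted p = 0.235), and Psmc1, the most abundant ATPase per kb, at 123 ± 5.99 and 124.6 ± 5.98 CPM (0.02, SE 0.07, adjusted p = 0.892). The summed level of the 17 subunits was 1903 ± 98.2 CPM (SD, n = 4) in vehicle mice and 1800 ± 105 CPM (SD, n = 5) in cotadutide mice, and the groups overlapped. The core estimates kept their side, with 13 of 14 above zero in every setting tried. The median of the regulatory particle stayed below zero in all settings except the muscle covariate, where it was 0.03 with 11 of 17 above zero. The muscle marker sums given above move with the treatment, and their part in the estimates of the 2 particles cannot be told apart from it.

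**Figure D4:**
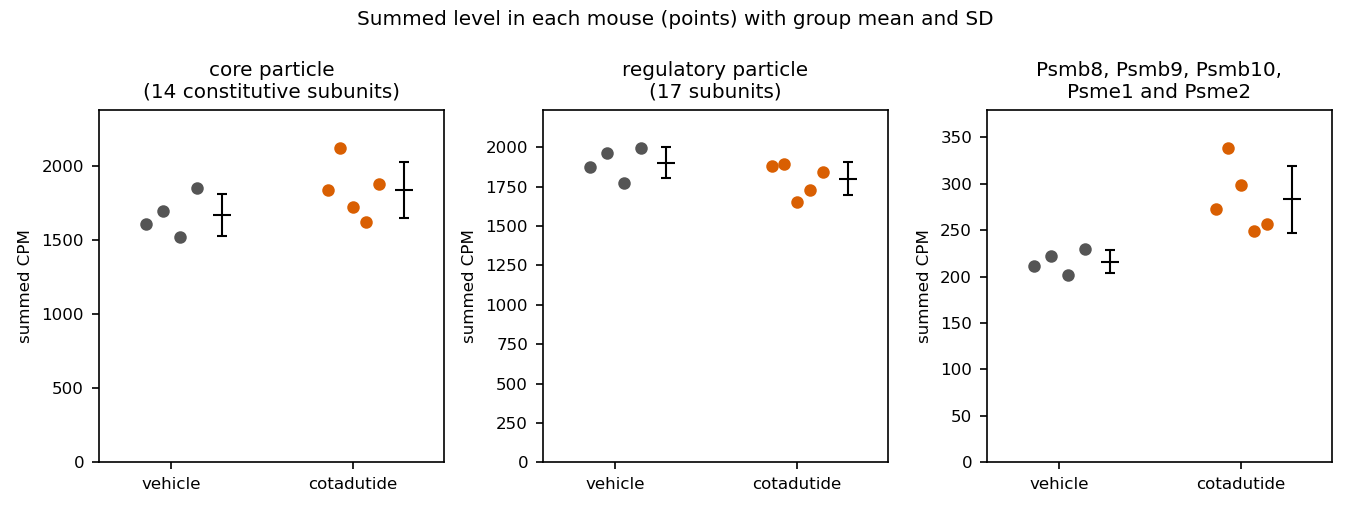
Summed CPM (y axes start at 0) of the 14 constitutive core subunits, the 17 regulatory particle subunits and the 5 genes Psmb8, Psmb9, Psmb10, Psme1 and Psme2 in each mouse (points), with group mean and SD. The core and regulatory sums overlap between groups. The sum of the 5 genes, among them 2 called higher, does not. It lies at 201 to 229 CPM in vehicle mice and 249 to 338 CPM in cotadutide mice. These 5 were chosen with results known, and of them only Psme2 is without overlap by itself. The sum of Psmb8, Psmb9 and Psmb10 alone overlaps (52.4 to 66.4 CPM in vehicle mice, 62.8 to 93.2 CPM in cotadutide mice).

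Chaperones assemble both particles and are not part of the finished protease. Psmg1, which encodes PAC1, a partner of Psmg2 in building the alpha ring (ENSMUSG00000022913, chr16:95979933-95990960), was at 24.5, 26.8, 23.6 and 29.5 CPM in vehicle mice and at 32.1, 39.9, 36.1, 29.6 and 35.2 CPM in cotadutide mice. Cotadutide mouse 4 was only just above vehicle mouse 4, and the groups did not overlap. Psmg1 rose 1.32-fold, from 26.1 ± 2.66 (SD, n = 4) to 34.6 ± 3.95 CPM (SD, n = 5), with a log2 fold change of 0.41 (SE 0.10, edgeR adjusted p = 0.0249). The call was lost without vehicle mice 1, 2 or 3 (adjusted p = 0.0804, 0.068 and 0.0781), without cotadutide mice 2 or 3 (0.0569 and 0.0583) and with the muscle covariate (0.361). Its partner Psmg2 was at 14.5 ± 3.39 and 14.5 ± 0.912 CPM, with a log2 fold change of 0.008 (SE 0.14, adjusted p = 0.973). Psmg3 and Psmg4, the second chaperone pair, had log2 fold changes of 0.41 (SE 0.16, adjusted p = 0.0869) and 0.39 (SE 0.16, adjusted p = 0.112). Pomp, the maturation factor of the beta ring, was at 81.0 ± 8.22 and 82.4 ± 8.23 CPM (0.02, SE 0.10, adjusted p = 0.886). The base chaperones Psmd5, Psmd9 and Psmd10 did not pass. Psmd9 had the smallest adjusted p of the 3 (0.14, SE 0.11, adjusted p = 0.384), with 25.5% of its exon bases shared with another gene, and Psmd10 was the most abundant per kb (0.10, SE 0.08, adjusted p = 0.44).

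A few members lie outside the proteasome of this tissue. Psma8, the testis form of an alpha subunit, had 11 counts over the vehicle mice and 9 over the cotadutide mice. Psmb11, the thymus catalytic subunit, had 1 and 0 counts, and a count of 0 allows up to 0.0386 CPM in the cotadutide group, counting error only. Neither was tested. Psmc3ip matches by symbol alone and encodes a recombination factor rather than a subunit, and it was at 2.14 ± 0.539 and 2.21 ± 0.530 CPM (adjusted p = 0.881).

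Genes around the proteasome were described from lists, and 19 genes named by rule from them passed the test. The rule took mainly the 3 smallest adjusted p of each list, so this number says nothing about the lists as a whole. All 19 calls were lost without vehicle mouse 1, without vehicle mouse 2 and with the muscle covariate, 17 without vehicle mouse 3 (all but Sqstm1 and Jak1), 13 without cotadutide mouse 2 and 9 without cotadutide mouse 3, and 1 to 3 without each of the other mice. Proteasome factors with other names were a list of 17 symbols, of which 14 were matched and tested. None was higher and 3 were lower, so 21.4% were called, against 18.7% of all genes tested. Zfand5, which binds the proteasome and stimulates degradation, was at 119.6, 122.3, 139.6 and 126.7 CPM in vehicle mice and at 96.9, 92.0, 71.9, 89.4 and 106.9 CPM in cotadutide mice, without overlap. Its log2 fold change was -0.47 (SE 0.11, edgeR adjusted p = 0.0188). Ecpas, a scaffold that ties core and regulatory particles, fell from 102.8 ± 4.07 to 86.3 ± 2.62 CPM (-0.25, SE 0.07, adjusted p = 0.0268), also without overlap. Zfand2a, induced by arsenite and heat, was lower, at 8.89 to 13.8 CPM in cotadutide mice against 13.4 to 20.2 CPM in vehicle mice (-0.58, SE 0.15, adjusted p = 0.0279), and here the groups overlapped. The median of the 14 was -0.03.

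Of 13 genes that control proteasome genes, none was higher and 2 were lower, with a median of -0.12. The share called was 15.4%, against 18.7% of all genes. Nfe2l1 was at 525.7, 509.0, 515.5 and 505.8 CPM in vehicle mice and at 453.9, 445.9, 402.2, 487.8 and 464.5 CPM in cotadutide mice. All cotadutide mice were below all vehicle mice, yet the log2 fold change of -0.19 (SE 0.08) did not pass (edgeR adjusted p = 0.117). Nfe2l1 passed with DESeq2 (adjusted p = 0.0421) and in edgeR with library totals alone (adjusted p = 0.0401), and in no other setting tried. Nfe2l2, the related factor of the oxidative stress response, was at 64.3 ± 5.58 and 60.1 ± 3.59 CPM (-0.10, SE 0.08, adjusted p = 0.406). The 2 that fell were small Maf genes, whose products pair with both. Mafg fell from 52.0 ± 5.13 to 40.5 ± 3.50 CPM (-0.36, SE 0.09, adjusted p = 0.0241), and Mafk from 28.6 ± 3.79 to 21.3 ± 2.98 CPM (-0.42, SE 0.12, adjusted p = 0.0361).

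Upstream of the proteasome, 1 of 22 genes for ubiquitin and its activating and conjugating enzymes was higher and 1 lower, with a median of -0.08. The share called was 9.09%, against 18.7% of all genes. Rps27a, which encodes ubiquitin fused to a ribosomal protein, was at 171 ± 26.9 and 224 ± 31.8 CPM (0.39, SE 0.13, edgeR adjusted p = 0.0517). It has many processed copies in the genome, so its counts are uncertain. Ubb, a polyubiquitin gene, had a log2 fold change of -0.01 (adjusted p = 0.946). Ube2g1, a conjugating enzyme, fell from 62.7 ± 3.70 to 50.0 ± 6.35 CPM (-0.33, SE 0.09, adjusted p = 0.0348).

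Among 16 tested genes of shuttling and of the p97 segregase, 4 were lower and 1 higher, with a median of -0.06. The share called was 31.25%, against 18.7% of all genes. Sqstm1, a receptor that carries ubiquitinated cargo, was at 364.1, 344.8, 343.1 and 312.1 CPM in vehicle mice and at 280.9, 221.2, 215.8, 233.0 and 278.4 CPM in cotadutide mice. The groups did not overlap, and the log2 fold change was -0.47 (SE 0.10, edgeR adjusted p = 0.0184). Vcp, which encodes p97 itself, fell from 305.7 ± 10.3 to 256.6 ± 16.8 CPM (-0.25, SE 0.08, adjusted p = 0.0466), and the 2 others that fell were its cofactor Ufd1 (adjusted p = 0.0476) and the shuttle Rad23b (adjusted p = 0.0499). With DESeq2 size factors in the same fit Sqstm1 was the only one of the 4 that passed, and Vcp, Ufd1 and Rad23b had adjusted p of 0.0526, 0.051 and 0.0501. Without vehicle mouse 1 or 2 none of the 4 passed, and without vehicle mouse 3 or cotadutide mouse 2 or 3 Sqstm1 alone did. Rad23b was also lost without vehicle mouse 4 (0.0779), Ufd1 without cotadutide mouse 1 (0.051) and Vcp without cotadutide mouse 4 (0.0556). Vcp and Ufd1 were lost without a filter on low counts and with the mouse number as a replicate block too. Ufd1 had adjusted p of 0.0719 and 0.139 in these 2 edgeR fits. With the muscle covariate all 4 were lost. Ubxn1, another p97 cofactor, rose from 151.9 ± 17.4 to 200.7 ± 25.4 CPM (0.40, SE 0.11, adjusted p = 0.0314). In the degradation pathway of the endoplasmic reticulum, 2 of 13 tested genes were higher and 2 lower (30.8% called), with a median of -0.07. The higher ones were the channel components Derl1 (144.7 ± 16.9 to 193 ± 13.6 CPM, 0.42, adjusted p = 0.0198) and Derl2 (0.25, adjusted p = 0.049). The Derl2 call was lost with DESeq2 size factors, with library totals alone and without a filter on low counts. It was also lost without mitochondrial genes, with the replicate block and with the muscle covariate. Of the fits without 1 mouse, Derl2 passed only in that without vehicle mouse 4. The lower ones were the mannosidase Edem3 (-0.27, adjusted p = 0.0408) and the ligase adaptor Sel1l (-0.21, adjusted p = 0.0495). Sel1l was lost with upper quartile scaling (0.0509), with no filter on low counts (0.0871), with the replicate block (0.163) and with the muscle covariate (0.418). It was also lost in 7 of the 9 fits without 1 mouse, all but those without vehicle mouse 4 or cotadutide mouse 4.

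The peptides of the immunoproteasome feed MHC class I presentation. Of 16 such genes, 2 were higher and none lower, with a median of 0.05. The share called was 12.5%, against 18.7% of all genes. Tap2, a peptide transporter subunit, was at 33.9, 38.6, 32.9 and 40.2 CPM in vehicle mice and at 50.3, 52.7, 58.5, 45.6 and 42.9 CPM in cotadutide mice, without overlap. Its log2 fold change was 0.46 (SE 0.10, edgeR adjusted p = 0.0187). H2-T23, a nonclassical class I gene, rose from 30.3 ± 3.96 to 40.7 ± 7.33 CPM (0.43, SE 0.13, adjusted p = 0.0467). The H2-T23 call was lost without vehicle mouse 1, 2 or 3 and without cotadutide mouse 1, 2 or 3. It was also lost with library totals alone, the stricter filter, no mitochondrial genes, the replicate block and the muscle covariate. Tap1 was at 13.2 ± 2.99 and 18.5 ± 4.88 CPM (0.49, SE 0.20, adjusted p = 0.102), with cotadutide mouse 3 highest at 27.1 CPM. Of 19 genes of the interferon gamma response, 1 was higher and 2 lower (15.8% called), with a median of 0.007. The receptor kinases Jak1 (-0.35, SE 0.08, adjusted p = 0.0184) and Jak2 (-0.33, SE 0.10, adjusted p = 0.0365) fell.

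The 6 genes of muscle atrophy, which act through ubiquitin ligases of skeletal muscle, were examined because muscle RNA was present. Fbxo30 fell from 15.9 ± 2.42 to 12.4 ± 0.781 CPM (-0.36, SE 0.11, edgeR adjusted p = 0.0408) and the other 5 did not pass. The share called was 16.7%, against 18.7% of all genes. Trim63, the muscle ligase MuRF1, was at 45.1 ± 15.5 and 20.2 ± 10.9 CPM (-1.16, SE 0.39, adjusted p = 0.0584). With the muscle covariate its estimate was 0.21. The muscle marker level did not overlap between the groups, so that fit cannot tell muscle content from treatment. Fbxo21 was at 104 ± 22.6 and 134 ± 16.8 CPM (0.38, SE 0.15, adjusted p = 0.0884).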

How the data were processed

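RNA of brown adipose tissue came from 30 mg per mouse, with 1 library for each of 4 vehicle and 5 cotadutide mice. The authors deposited raw counts of reads per Ensembl gene, 49315 per library, as whole numbers. Per the labels' protocols the libraries were made with the NEBNext Ultra RNA kit from polyadenylated RNA. The submitters' processing notes list Trimmomatic 0.36, STAR 2.5.2b and, for counting, featureCounts (Subread 1.5.2), with build mm10. Tool settings, strandedness and the gene annotation are not named in them. Overlapping or near-identical genes could therefore share or lose reads.

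Symbols and gene types came from GENCODE M21, which matched 49056 identifiers (the rest took 0.0132% of counts), and 4 pseudogenes with a matching symbol were left out. The members and the gene lists were chosen with earlier results of these data known, and nothing is supported by their choice. Psme3ip1, which the set also meant to cover, is named Fam192a in that annotation and was not a member (log2 fold change -0.06, adjusted p = 0.635).

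Library totals of 10.8 to 25.1 M counts were corrected with TMM factors of 0.915 to 1.06. filterByExpr kept 14747 genes, which held 99.9% of counts. edgeR 4.0.16 (glmQLFit robust, glmQLFTest) in R 4.3.3 tested the group as the only term, two-sided, with Benjamini-Hochberg adjustment and a threshold of 0.05. The SE was computed from the log2 fold change and its F statistic. The biological coefficient of variation was 17.0% in common. No 2 libraries agreed within counting noise (lowest chi-square per degree of freedom 11.5), so each was 1 replicate. The fit was also run on simulated counts, in which fewer genes were changed than were called here and genes varied independently. That run is therefore no check of the calls given here.

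Named were all catalytic subunits, activators and the inhibitor, every member past the threshold, the member with the smallest adjusted p and the most abundant one of each class, and the 3 smallest adjusted p of each other list, plus Nfe2l1, Nfe2l2 and Pomp. Psmd1, Psmg2, Psmg3, Psmg4, Ubb, Ufd1, Rad23b and Sel1l were added after their values were seen. A few genes that the rule names are not reported here. Alternatives were other scalings and filters, DESeq2 1.42.0, limma-voom (limma 3.58.1), a replicate block, a muscle covariate, the removal of mitochondrial genes and of each mouse, and other lengths for the share of immune subunits.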

Additional observations from a re-analysis of the deposited data

Results flagged for a closer look

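In each group of 4 or 5 mice, the gap between the most extreme mouse and its nearest neighbour was compared with the whole range. Of 102 groups examined, 5 held a mouse beyond the limit, where chance gives about 1 in 20 groups.

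Psme1 in cotadutide mouse 2 was at 112.6 CPM, with the 4 others between 84.4 and 89.6 CPM. The same mouse also had the highest Psme2 and the highest summed level of the constitutive core. Tap1 in cotadutide mouse 3 was at 27.1 CPM, with the others between 15.2 and 17.8 CPM. Jak2 in cotadutide mouse 2 was low at 15.1 CPM, with the others between 18.2 and 19.4 CPM. Fbxo21 in cotadutide mouse 1 was low at 105.1 CPM, with the others between 136.9 and 146.9 CPM. Mafk in vehicle mouse 4 was low at 22.96 CPM, with the others between 30.1 and 31.2 CPM. Vehicle mouse 4 also had the highest sum of muscle markers.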

How the results depend on the processing

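No paired analysis is supported by the labels, which give the mice of both groups the same numbers without saying what they share; the correlation of deviations between same-numbered mice was 0.135, -0.04, 0.02 and -0.01 for mice 1 to 4. With the mouse number as a replicate block, 2 members were higher and 1 lower, and Psmg1 no longer passed (0.40, adjusted p = 0.0749). Over all genes the block left 516 higher and 768 lower calls, against 1373 and 1378.

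The number of members higher (3) was 0 with the muscle covariate and lay between 0 and 6 when 1 mouse was left out: 0 without vehicle mouse 1 or 2, 1 without vehicle mouse 3 or cotadutide mouse 2 or 3, and 6 without vehicle mouse 4, when Psmb3, Psmb9, Psme1 and Psmg3 joined and Psmb8 did not pass. The number lower (1) was 4 with library totals alone, 2 with the stricter filter, 3 with DESeq2, 2 without mitochondrial genes and 0 with the muscle covariate, and lay between 0 and 2 when 1 mouse was left out (0 without vehicle mouse 1 or 2). Psmd8 was the added lower call in these settings, with Psmd2 in DESeq2 and with Psmd1 and Psmd2 under library totals alone; without cotadutide mouse 1 it was Psmd2. Library totals alone moved the median of all genes from 0.003 to -0.07. The difference in the immune share was 2.44 points without division by length, 1.58 per kb of the spliced transcript (chosen after seeing the data), and 0.765 to 1.89 with 1 mouse left out. The share per protein residue was not run. Of the 19 genes from other lists that passed, 13 were lost with the block, all 19 with the muscle covariate and 0 to 3 in each other setting with all mice. The causes were not tested.

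Signs turned for values near zero. Psme3 was -0.064 with library totals alone, -0.039 without a filter, -0.0078 with the stricter filter, -0.021 without mitochondrial genes, -0.013 with the block and -0.042 to 0.015 with 1 mouse left out. Psmf1 was -0.036 with library totals alone, -0.0092 without a filter and -0.0068 to 0.097 with 1 mouse left out. Psmc1 was -0.051, -0.027 and -0.0085 with library totals alone, without a filter and without mitochondrial genes, and -0.026 to 0.041 with 1 mouse left out. Pomp was -0.045, -0.020 and -0.0019 in the same settings and -0.042 to 0.079 with 1 mouse left out. With the muscle covariate, which moves with the treatment, Psmc2 was 0.028, Tap1 -0.078 and Trim63 0.21.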
